A study of Mus musculus with 4 samples.

Results

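10 genes known as identity genes of large peritoneal macrophages were followed through the RNA-seq of mouse peritoneal macrophages: *Icam2*, *Selp*, *F5*, *F10*, *Alox15*, *Prg4*, *Vsig4*, *Garnl3*, *Cebpb* and *Bhlhe40*. They were chosen by name, and all 10 of 10 were found among the 15298 genes of the deposited data. The study asked how microcurrent stimulation (MCS), a weak pulsed current passed through the abdomen, changes gene expression in these cells at opposite phases of the day. Macrophages positive for CD11b and F4/80 and negative for Ly6G had been sorted from the peritoneal cavity of 6-week-old female BALB/c mice, and the sources name no transgene or other genetic change in either group. MCS mice received 300 µA at 400 Hz for 15 min through pads on abdomen and back under isoflurane. Control mice, labelled as untreated, went through the same handling without current according to the study's methods. Cells were taken at ZT2, directly after stimulation, or at ZT14, 12 h later, where ZT is the time in hours after lights on. Each of the 4 conditions (control ZT2, control ZT14, MCS ZT2 and MCS ZT14) had 1 library. The sources used here do not say how many mice went into each. No comparison of 2 conditions therefore has a replicate check or a test; an additive count model over all 4 libraries, given after these comparisons, is the only test.

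Large peritoneal macrophages are the resident macrophages of the serous cavity. They are seeded before birth, renew themselves locally and carry high F4/80, and retinoic acid made by the surrounding mesothelium and omentum sets their identity through the transcription factor GATA6. They are known for adhesion molecules and clotting factors that let them aggregate at injuries, for a lipoxygenase that oxidizes membrane lipids, and for receptors that clear complement-coated particles. The smaller, monocyte-derived macrophages of the cavity carry MHC class II and less F4/80.

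Expression is given in CPM, read counts scaled to library size and normalized by the authors with edgeR. In every column the values were whole multiples of what a single read was worth, and the libraries so recovered held between 8365590 and 9953243 reads. Between 715 and 54103 reads stood behind each value of the 10 genes, so that none was near the floor of 3 reads (0.307 to 0.348 CPM). A log2 ratio compares 2 libraries after adding 0.1 CPM to both. The 95% interval beside it is an exact binomial (Clopper-Pearson) interval on the recovered reads, which covers counting error only. Shares of genes with intervals apart from 0 are given for genes of at least 50 CPM. Many listed genes were lower, with wider intervals, and these shares were not matched to them. A gene met the study's fold criterion when its log2 ratio lay beyond 1 in either direction with a log2 mean CPM above 0. Because expression in bulk RNA is a mean over all sorted cells, fewer cells of a type and less RNA per cell cannot be told apart.

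The sorted cells carried the markers of their gate and of their type. *Itgam*, which encodes CD11b, ranged from 4214 to 5162 CPM and *Adgre1*, which encodes F4/80, from 1086 to 1900 CPM, while *Ly6g* was not analysed here. *Gata6* had 69.1 CPM in control ZT2, 89.0 CPM in control ZT14, 80.9 CPM in MCS ZT2 and 117 CPM in MCS ZT14. Markers of other cells were present as well. The summed level of 12 small peritoneal macrophage markers ranged from 4421 CPM in MCS ZT14 to 5524 CPM in MCS ZT2, that of 7 mast cell markers from 1015 to 2402 CPM in the same libraries, and that of 5 B cell markers from 901 CPM in MCS ZT14 to 1279 CPM in control ZT14. Neutrophil markers (8 analysed) summed to 12.8 CPM in MCS ZT14 and 114 CPM in MCS ZT2, and red blood cell markers (6 analysed) to 1.32 CPM in control ZT14 and 112 CPM in MCS ZT14.

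**Figure D1:**
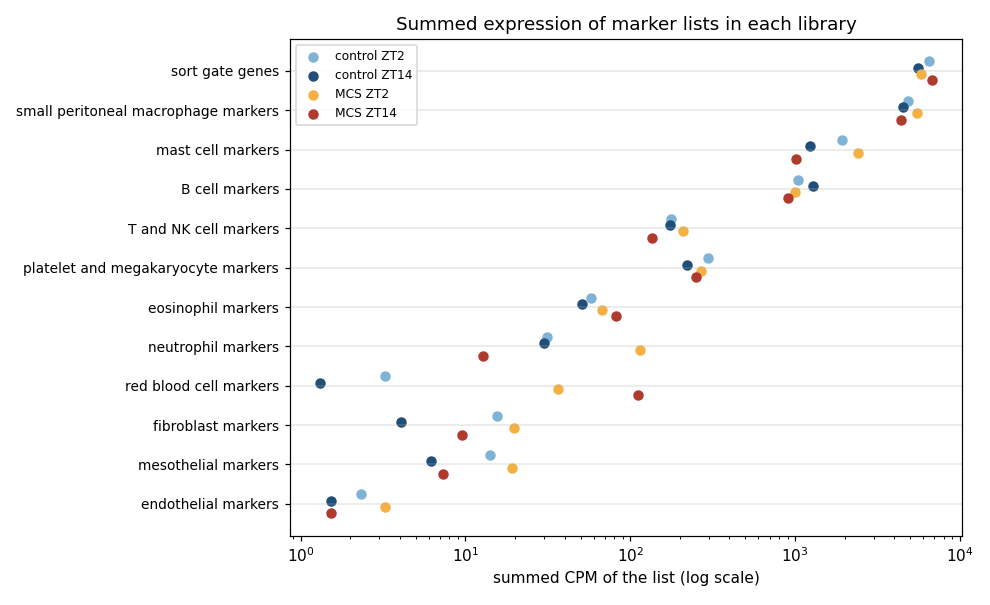
Summed CPM (x axis, log scale) of lists of marker genes (y axis) in each of the 4 libraries (colours), 1 point per library. The sort gate genes sum to between 5575 and 6731 CPM, and the endothelial markers stay between 1.53 and 3.25 CPM in every library.

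Upstream sequence was available for 6 of the 10 genes. RefSeq windows on GRCm38.p6, from 250 bases before to 50 bases after a start site, were searched on both strands. The E-box, a palindrome bound by clock factors and by BHLHE40, was written as CACGTG. For GATA factors the forms AGATAA and, in a separate search, TGATAA were used. A C/EBP-type site was taken as TTGCNNAA. The cAMP response element (CRE) was searched in full as TGACGTCA and, since many such elements are partial, also by the core TGACG that it contains. The nuclear receptor element was AGGTCA. For the TATA box, the letters TATAAA were taken. AGGTCA was found on the opposite strand, as TGACCT, once each in *Selp*, *F5* and *F10*, starting at positions -93, -57 and -30 from the start site. Of all 32851 windows, 16.3% held it. TGACG was found in *Cebpb* alone among the members, at positions -180 (as CGTCA), -53 and -7, and 20.8% of all windows held it. TATAAA followed the *Cebpb* start at position 22, against 13.6% of all windows. The E-box, both GATA sites, the C/EBP-type site and the full CRE were in none of the windows of *Selp*, *F5*, *F10*, *Vsig4*, *Cebpb* and *Garnl3*, the last with 2 start sites. They were in 7.15%, 11.2%, 9.05%, 10.8% and 1.79% of all windows, in that order. The 250 bases before the start are shown for the 3 genes that share TGACCT and for *Cebpb*, with the matched letters in capitals.
Selp, chr1:164115014-164115263, plus strand: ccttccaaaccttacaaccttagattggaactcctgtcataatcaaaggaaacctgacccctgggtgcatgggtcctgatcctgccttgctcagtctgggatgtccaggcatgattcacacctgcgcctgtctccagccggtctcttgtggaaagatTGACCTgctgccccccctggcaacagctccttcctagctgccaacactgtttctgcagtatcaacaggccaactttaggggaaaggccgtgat
F5, chr1:164151585-164151834, plus strand: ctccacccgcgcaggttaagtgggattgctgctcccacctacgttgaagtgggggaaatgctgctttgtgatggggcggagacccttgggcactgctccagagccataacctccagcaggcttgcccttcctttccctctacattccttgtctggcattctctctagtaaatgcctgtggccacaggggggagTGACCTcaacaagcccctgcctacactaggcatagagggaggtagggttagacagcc
F10, chr8:13037058-13037307, plus strand: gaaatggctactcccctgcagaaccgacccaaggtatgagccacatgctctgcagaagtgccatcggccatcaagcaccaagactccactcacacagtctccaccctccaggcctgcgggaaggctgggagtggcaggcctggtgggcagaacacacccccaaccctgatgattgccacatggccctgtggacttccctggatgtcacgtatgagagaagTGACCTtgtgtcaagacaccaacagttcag
Cebpb, chr2:167688665-167688914, plus strand: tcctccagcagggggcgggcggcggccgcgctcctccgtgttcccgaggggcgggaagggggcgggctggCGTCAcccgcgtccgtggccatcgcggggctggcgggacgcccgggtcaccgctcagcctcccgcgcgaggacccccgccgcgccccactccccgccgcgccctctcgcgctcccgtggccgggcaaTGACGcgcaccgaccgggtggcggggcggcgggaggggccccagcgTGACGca
The *Cebpb* window was the richest in G and C of those shown, at 81.6%, against 53.6% for *Selp*, 57.2% for *F5* and 57.6% for *F10*. A match describes letters in a window and says nothing of binding.

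The 10 genes differed widely in level. On the scale of mean CPM per kb of the longest annotated transcript (GENCODE M21), *Alox15* was the highest with 1750, followed by *Prg4* with 766, *F5* with 407, *Selp* with 231, *Icam2* with 198, *Vsig4* with 167, *F10* with 136, *Cebpb* with 105, *Bhlhe40* with 48.7 and *Garnl3* with 26.9 CPM per kb. The ranges over the 4 libraries did not overlap between *Alox15*, *Prg4*, *F5* and *Selp*. From *Selp* down to *Cebpb* each gene overlapped with its neighbour in this order, and so did *Bhlhe40* with *Garnl3*. With the median transcript length in place of the longest, *Selp* (865 CPM per kb) and *Icam2* (443 CPM per kb) came before *F5* (407 CPM per kb), and the other 7 genes kept their rank.

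Across the libraries, 6 of the 10 genes had their highest CPM in MCS ZT14, which held for 33% of the 3671 genes with a mean of at least 50 CPM. These were *Icam2*, *F10*, *Alox15*, *Garnl3*, *Cebpb* and *Bhlhe40*. *Selp*, *F5* and *Vsig4* were highest in control ZT2, and *Prg4* in control ZT14. The ratio of the highest to the lowest library ran from 1.13 for *F5* to 2.49 for *Bhlhe40*.

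**Figure D2:**
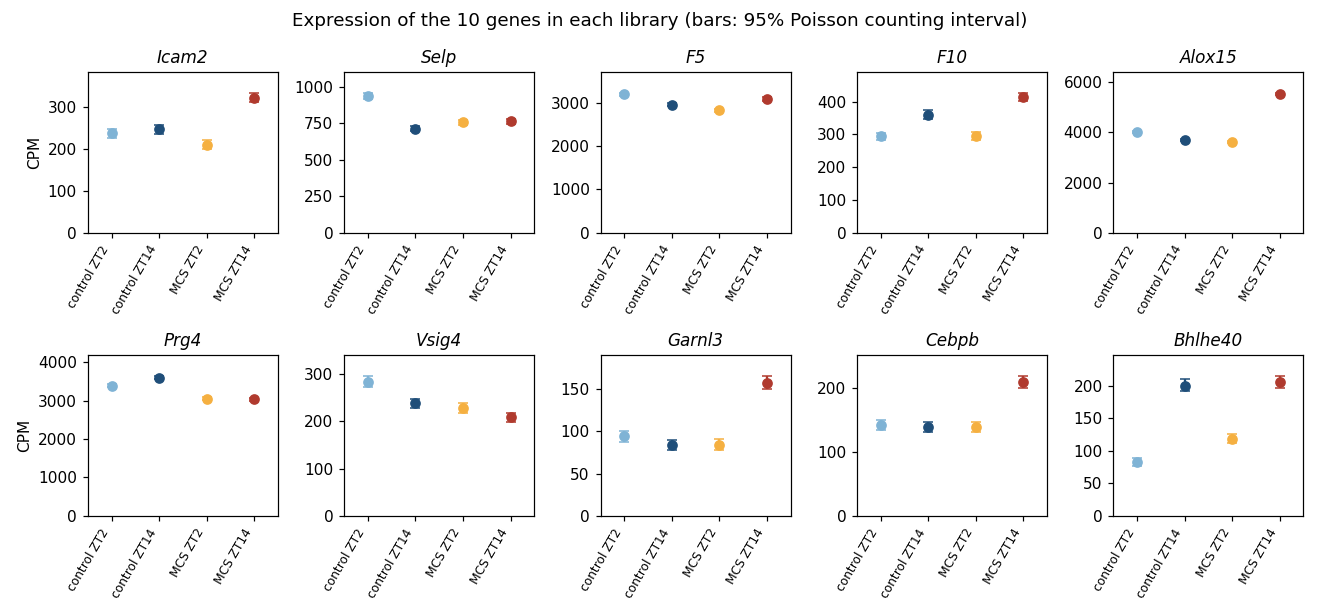
CPM (y axis, from 0, own scale per panel) of each of the 10 genes in the 4 libraries (x axis), with 95% Poisson counting intervals as bars. *Garnl3*, *Cebpb*, *Alox15* and *Icam2* stand highest in MCS ZT14, whereas *Bhlhe40* is high in both ZT14 libraries, at 200.3 CPM in control and 206 CPM in MCS.

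Among the adhesion molecules, *Icam2* was highest where MCS and ZT14 met. ICAM-2 (CD102) is a ligand of the integrin LFA-1 and a standard surface marker of large peritoneal macrophages; its gene lies on the minus strand at chr11:106377656-106388075 (GRCm38). *Icam2* had 237 CPM in control ZT2, 247 CPM in control ZT14, 210.4 CPM in MCS ZT2 and 323 CPM in MCS ZT14. The MCS ZT14 library was the highest and the MCS ZT2 library the lowest. MCS against control gave a log2 ratio of 0.39 (0.31 to 0.47) at ZT14 and -0.17 (-0.26 to -0.080) at ZT2. From ZT2 to ZT14 the level was nearly the same in control, with a log2 ratio of ZT2 to ZT14 of -0.057 (-0.14 to 0.030), and it differed by -0.62 (-0.70 to -0.53) in MCS.

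*Selp*, which encodes P-selectin, is better known from platelets and endothelium, where it tethers leukocytes. It lies on the plus strand at chr1:164115264-164150026. *Selp* had 938 CPM in control ZT2, 714 CPM in control ZT14, 756 CPM in MCS ZT2 and 764 CPM in MCS ZT14. Control ZT2 stood above the remaining libraries, which lay close together. The ratio of ZT2 to ZT14 was 0.39 (0.35 to 0.44) in control and -0.014 (-0.062 to 0.034) in MCS on the log2 scale, and that of MCS to control was -0.31 (-0.36 to -0.26) at ZT2 and 0.098 (0.049 to 0.15) at ZT14. Of 12 platelet markers 8 were analysed. They summed to between 220 and 296 CPM, highest in control ZT2 like *Selp*, of which *Pf4* made 178 to 227 CPM. *Itgb3* had 31.5 to 63.3 CPM, *Itga2b* 4.83 to 8.005 CPM and *Gp1ba* 3.63 to 6.93 CPM. The platelet genes *Gp5*, *Gp9*, *Treml1* and *Vwf* stayed below 1 CPM in every library. All 4 platelet markers tested between ZT2 and ZT14 in control, *Pf4*, *Itga2b*, *Itgb3* and *Gp1ba*, had intervals above 0 there, as *Selp* did, with a median log2 ratio of 0.66. Of genes of at least 50 CPM, 50.4% had intervals apart from 0 in either direction. *Itga2b* and *Gp1ba* were far below 50 CPM and *Itgb3* had 31.5 CPM in control ZT14, so that this share comes from better counted genes. For MCS against control at ZT2 *Pf4* (-0.25) and *Gp1ba* (-0.80) had intervals below 0, as *Selp* did, and *Itgb3* (0.29) one above. There 39.7% of genes of at least 50 CPM had intervals apart from 0. Between ZT2 and ZT14 in MCS, *Itga2b* (0.67, 0.13 to 1.23) and *Itgb3* (0.39, 0.21 to 0.57) had intervals above 0, unlike *Selp*. Those of *Pf4* and *Gp1ba* included 0, as that of *Selp* did. In that comparison 66.2% of genes of at least 50 CPM had intervals apart from 0. For comparison, 6 endothelial markers summed to at most 3.25 CPM. What platelets contributed to *Selp* was not tested.

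*F5* encodes coagulation factor V, the cofactor with which factor X cleaves prothrombin, and it is the neighbour of *Selp*, 1812 bases away at chr1:164151838-164220277 on the same strand. *F5* had 3199 CPM in control ZT2, 2962 CPM in control ZT14, 2832 CPM in MCS ZT2 and 3094 CPM in MCS ZT14. No other gene of the 10 varied so little. The log2 ratio of MCS to control was 0.063 (0.039 to 0.087) at ZT14 and -0.18 (-0.20 to -0.15) at ZT2. The noncoding gene *Gm16548*, on the opposite strand, overlaps both *Selp* and *F5*, and its own level was 2.64 to 4.50 CPM.

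*F10*, the gene of coagulation factor X, the protease itself, lies on the plus strand at chr8:13037308-13056676. *F10* had 294 CPM in control ZT2, 361 CPM in control ZT14, 294 CPM in MCS ZT2 and 414 CPM in MCS ZT14. Both ZT14 libraries were above both ZT2 libraries. The log2 ratio of ZT2 to ZT14 was -0.30 (-0.37 to -0.22) in control and -0.49 (-0.56 to -0.42) in MCS, and that of MCS to control was 0.20 (0.13 to 0.27) at ZT14 and 0.0025 (-0.077 to 0.082) at ZT2. Next to it, *F7*, the gene of factor VII, was far lower at 17.9 to 23.3 CPM, and *Proz* had 1.39 to 5.2 CPM.

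Of 23 other genes of coagulation and fibrinolysis tested at ZT14, *F2r*, a thrombin receptor, alone passed the fold criterion (1 of 23, against 3.4% of all genes tested), with 1.54 CPM without and 4.40 CPM with MCS (log2 ratio 1.46, 0.62 to 2.50), and the interval excluded 0 upward for 8 and downward for 1. Intervals apart from 0 were found for 61.2% of genes of at least 50 CPM. Many genes of the list were below that level, with fewer reads and wider intervals. The list's median log2 ratio was 0.16, against 0.0039 over all genes tested. At ZT2 the median over 22 genes was -0.16, with 4 intervals above and 8 below 0, against 39.7% of genes of at least 50 CPM in either direction. There *F13a1*, which encodes the clot-stabilizing factor XIII A subunit, had 87.0 CPM without and 184 CPM with MCS, which is a log2 ratio of 1.08 (0.96 to 1.21). *F2rl2* (2.89 and 6.26 CPM) and *Plg* (2.54 and 0.696 CPM) were the other genes past the criterion at ZT2, which makes 3 of 22 against 2.21% of all genes tested. Between the MCS libraries 3 of 21 passed it, against 5.83% of all genes tested, among them *F13a1* with a log2 ratio of ZT2 to ZT14 of 1.04 and *Plg* with one of -1.36. In control none of 22 passed, against 3.61%. *Thbd*, which encodes thrombomodulin and was picked after its values were seen, had 108 CPM in control ZT14 and 179.7 CPM in MCS ZT14.

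*Alox15* encodes the lipoxygenase that oxygenates arachidonic acid and membrane phospholipids in resident peritoneal macrophages, and it is also abundant in eosinophils. The gene lies on the minus strand at chr11:70344152-70352031. *Alox15* had 4015 CPM in control ZT2, 3712 CPM in control ZT14, 3607 CPM in MCS ZT2 and 5532 CPM in MCS ZT14. The last stood apart from the rest. MCS against control gave a log2 ratio of 0.58 (0.56 to 0.60), or 1.49-fold, at ZT14 and -0.15 (-0.18 to -0.13) at ZT2. ZT2 against ZT14 gave 0.11 (0.092 to 0.13) in control and -0.62 (-0.64 to -0.60) in MCS. Eosinophil markers differed between the same libraries. *Ccr3* had 5.31, 1.32, 12.2 and 33.8 CPM in control ZT2, control ZT14, MCS ZT2 and MCS ZT14, and *Siglecf* had 1.27, 0.659, 5.80 and 14.1 CPM in the same order. *Il5ra*, the remaining one of the 3 of 7 eosinophil markers analysed, went the other way at ZT14, with 48.9 CPM without and 33.9 CPM with MCS. The part of eosinophils in the *Alox15* level was not tested.

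Among 10 other lipoxygenase and eicosanoid genes tested at ZT14, none passed the fold criterion, against 3.4% of all genes tested. Of them 7 had intervals above 0 and none below, against 61.2% of genes of at least 50 CPM in either direction. The median log2 ratio was 0.30. At ZT2 the median over 11 genes was 0.025, with 1 interval above and 3 below 0, and *Ephx2* (0.924 CPM in control, 3.71 CPM in MCS) was past the criterion. There 39.7% of genes of at least 50 CPM had intervals apart from 0, and 2.21% of all genes tested passed the criterion. Between the MCS libraries 8 of 11 had lower levels at ZT2 than at ZT14 beyond their intervals and 1 higher, with a median of -0.38. Intervals apart from 0 were found for 66.2% of genes of at least 50 CPM, and 5.83% of all genes tested passed the criterion. *Ptges*, which encodes a prostaglandin E synthase, had 16.2 CPM in MCS ZT2 and 35.8 CPM in MCS ZT14 (log2 ratio -1.14). *Ephx2* was past the criterion in the other direction, with 3.71 CPM in MCS ZT2 and 0.511 CPM in MCS ZT14 (2.64, 1.49 to 4.58). As an example picked after its values were seen, *Alox5*, the gene of the leukotriene-forming lipoxygenase, had 216 CPM in control ZT14 and 297 CPM in MCS ZT14.

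*Prg4* encodes proteoglycan 4 (lubricin), a secreted glycoprotein that lubricates joints and serous surfaces, and lies on the minus strand at chr1:150449412-150466165. *Prg4* had 3388 CPM in control ZT2, 3595 CPM in control ZT14, 3043 CPM in MCS ZT2 and 3028 CPM in MCS ZT14. Both MCS libraries were below both control libraries. The log2 ratio of MCS to control was -0.25 (-0.27 to -0.22) at ZT14 and -0.16 (-0.18 to -0.13) at ZT2. The 8 analysed markers of mesothelial cells, which line the cavity, summed to between 6.15 and 19.1 CPM. The gene *Tpr* overlaps *Prg4* on the opposite strand at 324 to 369 CPM, and whether the counting used strand was not given in the sources used here.

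*Vsig4*, on the minus strand at chrX:96247203-96293438, encodes the complement receptor CRIg, which binds C3b-coated particles. *Vsig4* had 284 CPM in control ZT2, 238 CPM in control ZT14, 229 CPM in MCS ZT2 and 208 CPM in MCS ZT14. It too was lower in both MCS libraries than in both control libraries, and no other gene of the 10 shared this order with *Prg4*. For *Vsig4*, though, the counting intervals of control ZT14 (228 to 248 CPM) and MCS ZT2 (219 to 239 CPM) overlapped. MCS against control gave a log2 ratio of -0.31 (-0.40 to -0.23) at ZT2 and -0.19 (-0.28 to -0.10) at ZT14. ZT2 against ZT14 gave 0.26 (0.17 to 0.34) in control and 0.13 (0.044 to 0.22) in MCS.

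*Garnl3* had the highest MCS ratio of the 10. It encodes a protein with a GTPase-activating domain of the Rap type and lies on the minus strand at chr2:32986224-33131654. *Garnl3* had 94.0 CPM in control ZT2, 83.0 CPM in control ZT14, 84.0 CPM in MCS ZT2 and 157 CPM in MCS ZT14. MCS ZT14 lay well above the other libraries, which were close together. The log2 ratio of MCS to control was 0.92 (0.79 to 1.05), or 1.89-fold, at ZT14, so that its interval reached the fold criterion and its value did not, and it was -0.16 (-0.31 to -0.016) at ZT2. ZT2 against ZT14 gave 0.18 (0.034 to 0.32) in control and -0.90 (-1.03 to -0.77) in MCS. Of 14 genes of Rap GTPases and their regulators, none passed the criterion in any comparison, against 2.21% to 5.83% of all genes tested. At ZT14 the interval lay above 0 for 2 and below 0 for 9, against 61.2% of genes of at least 50 CPM in either direction. The median log2 ratio there was -0.19. Of the neighbours of *Garnl3*, *Ralgps1*, 1765 bases away, had a log2 ratio of -0.34 at ZT14, and *Slc2a8*, on the other side, 0.72 at a low level of 11.5 CPM in control and 19.0 CPM in MCS. *Garnl3* transcripts share 166 bases with *Ctcfl* (95.2% identity), 163 with *Rc3h2* (95.1%) and 158 with *Syt11* (95.6%). What these stretches contributed to its reads was not tested.

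*Cebpb*, whose product C/EBP-beta is a transcription factor needed for large peritoneal macrophages to form, is a gene of 1 exon on the plus strand at chr2:167688915-167690418. *Cebpb* had 143 CPM in control ZT2, 139 CPM in control ZT14, 140 CPM in MCS ZT2 and 210.0 CPM in MCS ZT14. The counting intervals of the other libraries overlapped, and MCS ZT14 was above them. The log2 ratio of MCS to control was 0.60 (0.50 to 0.70), or 1.51-fold, at ZT14 and -0.033 (-0.15 to 0.083) at ZT2. ZT2 against ZT14 gave 0.040 (-0.074 to 0.15) in control and -0.59 (-0.69 to -0.49) in MCS. In GENCODE M21 the gene overlaps *Tmem189* on the opposite strand, with which it shares 320 bases at 99.4% identity. The RefSeq record of *Tmem189* ends 27371 bases away. *Tmem189* had 62.5 to 83.2 CPM.

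*Bhlhe40* was higher at ZT14 than at ZT2 in both treatments, and of the 10 genes it differed most between the times in control. Its product is a basic helix-loop-helix repressor that binds E-boxes, takes part in the circadian clock and is required for large peritoneal macrophages to proliferate. It lies on the plus strand at chr6:108660629-108666925. *Bhlhe40* had 82.6 CPM in control ZT2, 200.3 CPM in control ZT14, 118 CPM in MCS ZT2 and 206 CPM in MCS ZT14. Both ZT14 libraries were far above both ZT2 libraries. The log2 ratio of ZT2 to ZT14 was -1.28 (-1.40 to -1.15) in control and -0.79 (-0.91 to -0.69) in MCS. MCS against control gave 0.52 (0.38 to 0.66), or 1.43-fold, at ZT2 and 0.037 (-0.055 to 0.13) at ZT14, so that the 2 treatments were apart at ZT2 and within counting error at ZT14. Its relative *Bhlhe41*, picked after its values were seen, had 77.7, 132, 90.8 and 81.4 CPM in control ZT2, control ZT14, MCS ZT2 and MCS ZT14, high in control ZT14 alone.

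Among 19 other C/EBP, BHLHE and macrophage transcription factor genes, *Cebpe* passed the fold criterion at ZT14 (2.31 CPM in control, 5.42 CPM in MCS, log2 ratio 1.20 with 0.48 to 2.04), and none did in the other comparisons. Of all genes tested, 3.4% passed at ZT14 and 2.21% to 5.83% in the other comparisons. At ZT14 the intervals lay above 0 for 5 and below 0 for 8, against 61.2% of genes of at least 50 CPM in either direction. The median log2 ratio was 0.041. In control, 10 had lower levels at ZT2 than at ZT14 beyond their intervals and 3 higher, with a median of -0.26. There 50.4% of genes of at least 50 CPM had intervals apart from 0. *Gata6* had a log2 ratio of MCS to control of 0.40 (0.27 to 0.53) at ZT14 and 0.23 (0.068 to 0.39) at ZT2.

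Taking the 10 genes at ZT14, none passed the fold criterion between MCS and control, where 3.4% of 12368 genes did. *Garnl3*, *Cebpb* and *Alox15* had log2 ratios above 0.5, or 3 of 10, against 3% of 3733 genes with a mean of at least 50 CPM; in either direction it was 5.89%. Of the 10 genes 8 were higher and 2, *Prg4* and *Vsig4*, lower, with a median log2 ratio of 0.15 against 0.0039 over all genes tested and -0.021 over those of at least 50 CPM. The interval excluded 0 for 9 of the 10, all but *Bhlhe40*, against 61.2% of genes of at least 50 CPM.

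At ZT2 the same genes were mostly lower with MCS. None of the 10 passed the fold criterion (2.21% of 12612 genes did), and *Bhlhe40* alone had a log2 ratio beyond 0.5, against 1.13% of genes of at least 50 CPM. Of the 10 genes 2 were higher and 8 lower, with a median of -0.16 against 0.0048 over all genes tested. For 7 the interval lay below 0 and for 1, that of *Bhlhe40*, above; that is 8 of 10 against 39.7% of genes of at least 50 CPM. *Cebpb* and *F10* included 0.

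**Figure D3:**
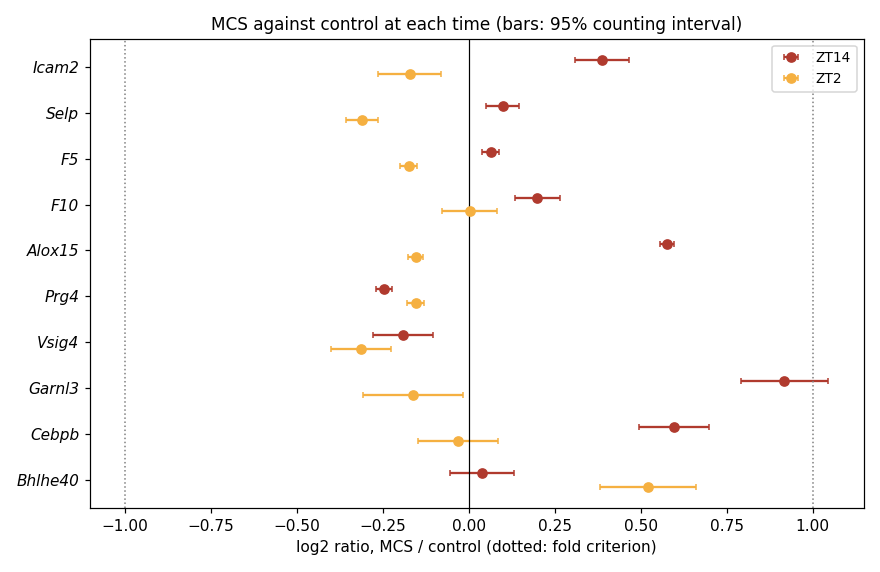
Log2 ratio of MCS to control (x axis) for each of the 10 genes (y axis) at ZT14 and ZT2, with 95% counting intervals as bars and dotted lines at the fold criterion. *Garnl3* lies at 0.92 for ZT14 and -0.16 for ZT2, and *Bhlhe40* at 0.037 and 0.52.

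The MCS ratio was higher at ZT14 than at ZT2 for 8 of the 10 genes, which was so for 45.6% of the 3671 genes of at least 50 CPM. The median difference of the log2 ratios was 0.32, against -0.040 over those genes. It was 1.08 (0.89 to 1.27) for *Garnl3*, 0.73 (0.70 to 0.76) for *Alox15*, 0.63 (0.48 to 0.78) for *Cebpb* and 0.56 (0.44 to 0.68) for *Icam2*. These 4 exceeded 0.5, against 6.89% of genes of at least 50 CPM. *Selp* followed with 0.41, *F5* with 0.24, *F10* with 0.20 and *Vsig4* with 0.12. *Prg4* at -0.093 (-0.13 to -0.060) and *Bhlhe40* at -0.48 (-0.65 to -0.32) went the other way. For 5 of the 10 genes the ratio lay above 0 at ZT14 and below 0 at ZT2 with both counting intervals apart from 0, against 11.4% of genes of at least 50 CPM; in either order of signs it was 23.1%. The intervals of these differences are normal approximations for counting error, and with 1 library per condition no interaction was tested.

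Between ZT2 and ZT14, 1 of the 10 genes in control and 5 in MCS had log2 ratios beyond 0.5; the difference between these counts was not tested. In control, *Bhlhe40* was the only one of the 10 past the fold criterion between ZT2 and ZT14, where 3.61% of 12465 genes passed; it was also the only one beyond 0.5, against 6.04% of genes of at least 50 CPM. The median log2 ratio of ZT2 to ZT14 was 0.075, against -0.0028 over all genes tested, and 8 of 10 intervals excluded 0, against 50.4%. In MCS none of the 10 passed the criterion, where 5.83% of 12534 genes did, but *Garnl3*, *Bhlhe40*, *Alox15*, *Icam2* and *Cebpb* were below -0.5. This was 5 of 10 against 7.01% of genes of at least 50 CPM, or 11.8% counting both directions. The median was -0.54 against 0.0053 over all genes tested, and 8 of 10 intervals excluded 0, against 66.2%. *Prg4* and *Selp* included 0. For 3 of the 10 genes the ratio lay above 0 in control and below 0 in MCS with both intervals apart from 0, against 6.05% of genes of at least 50 CPM, or 15.6% in either order of signs. The 4 comparisons share libraries with each other in pairs, so that their ratios are not independent.

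**Figure D4:**
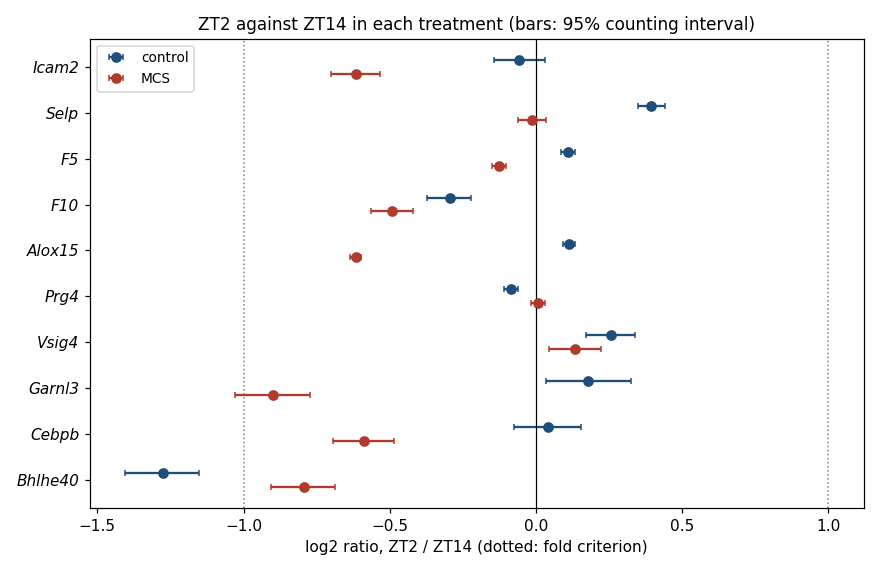
Log2 ratio of ZT2 to ZT14 (x axis) for each of the 10 genes (y axis) in control and in MCS, with 95% counting intervals as bars and dotted lines at the fold criterion. *Bhlhe40* lies at -1.28 in control and -0.79 in MCS, and *Garnl3*, *Cebpb*, *Alox15* and *Icam2* lie between -0.90 and -0.59 in MCS.

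A count model was fitted over all 4 libraries as an alternative. edgeR's quasi-likelihood test with additive terms for time and MCS, which rests on 1 residual degree of freedom and assumes 1 effect of MCS at both times, called none of the 10 genes for MCS. Among all genes 24 of 12404 (0.193%) had an adjusted p under 0.05. For *Icam2*, *Selp*, *F5*, *Alox15* and *Garnl3* the MCS ratios had opposite signs at ZT14 and ZT2, unlike this assumption. A single MCS effect averages over such ratios, so that the lack of a call decides nothing about either time. None of the 10 had an unadjusted p under 0.05 in this fit or by DESeq2, and *Garnl3* came nearest with a log2 effect of 0.38 and an edgeR p of 0.051 before adjustment (adjusted p of 0.99997). With genes of at least 10 reads admitted to the edgeR fit, its unadjusted p was 0.026. For time it called 1 of the 10, *Bhlhe40*, and 295 of all genes (2.38%). The edgeR log2 effect of ZT2 against ZT14 on *Bhlhe40* was -1.03 with an adjusted p of 0.00021 by the quasi-likelihood test, lower at ZT2 in both treatments, and the adjusted p ranged from 8.0e-07 to 0.0013 over the other edgeR and DESeq2 settings. *F10* had an edgeR log2 effect of -0.39 with an adjusted p of 0.44.

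The other genes of large peritoneal macrophages moved in both directions. At ZT14, 14 of 24 had intervals above 0 and 7 below, with a median log2 ratio of 0.15, where 61.2% of genes of at least 50 CPM had intervals that excluded 0 in either direction. At ZT2 2 of 24 lay above and 15 below, with a median of -0.091, against 39.7% in either direction. At ZT14 *Fabp7*, a fatty acid carrier, had 27.4 CPM without and 73.0 CPM with MCS (log2 ratio 1.41, 1.21 to 1.63). *Cxcl13*, the B cell attractant, went from 437 CPM in control ZT14 to 106 CPM in MCS ZT14 (-2.05, -2.15 to -1.95), and *Lyve1*, a hyaluronan receptor, 30.9 and 12.5 CPM (-1.30, -1.63 to -0.995). *Fabp7* (1.42) and *Cxcl13* (-1.18) also passed the criterion between ZT2 and ZT14 in control, and *Slpi* (-1.30), *Lyve1* (1.08) and *Cxcl13* (1.07) in MCS. Of all genes tested, 3.4% passed it with MCS at ZT14, 3.61% between the times in control and 5.83% in MCS. With MCS at ZT2 none of the 24 passed, against 2.21%. *Adgre1*, itself a gene of the sort gate, had a log2 ratio of MCS to control of 0.48 (0.45 to 0.51) at ZT14 and -0.29 (-0.33 to -0.25) at ZT2. *Icam2*, *Selp*, *F5*, *Alox15* and *Garnl3* had the same signs with both intervals apart from 0. So did *Itgam*, also of the gate, with 0.20 (0.18 to 0.22) at ZT14 and -0.12 (-0.14 to -0.098) at ZT2. Small peritoneal macrophage markers went the other way at ZT2, where 9 of 12 had intervals above 0 and none below. At ZT14 it was 3 above and 3 below. Mast cell markers had 6 of 7 intervals above 0 at ZT2 and none below, and at ZT14 1 above and 4 below. Of neutrophil markers 6 of 6 tested were above 0 at ZT2, and of B cell markers none of 5, with 1 below. What these cells contributed to the ratios of the 10 genes was not tested.

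Among the adhesion partners, the list of selectin, ICAM and ligand genes, with 11 tested, held no gene past the criterion in any comparison. Of all genes tested, 2.21% to 5.83% passed it. The median log2 ratio of the list was 0.026 at ZT14 and 0.12 at ZT2.

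Log2 ratios at ZT14 moved with transcript length. Genes of at least 50 CPM with an annotated length, 3571 in number, were divided into 4 equal classes by their longest transcript. At ZT14 the median log2 ratio with MCS was 0.11 in the class with the shortest transcripts, 0.019 and -0.065 in the next classes and -0.14 in the class with the longest, with a Spearman correlation across genes of -0.37. The correlation at ZT2 was 0.18. For the ratio of ZT2 to ZT14 the correlation was 0.32 in MCS and -0.14 in control. *Icam2*, *F10*, *Alox15*, *Vsig4* and *Cebpb* belong to the class of shortest transcripts, *Selp*, *Prg4*, *Garnl3* and *Bhlhe40* to the second and *F5* to the longest. Relative to the median of its own length class, a measure added after the data were seen, the ZT14 log2 ratio was 0.90 for *Garnl3*, 0.48 for *Cebpb*, 0.46 for *Alox15*, 0.27 for *Icam2*, 0.20 for *F5*, 0.085 for *F10*, -0.27 for *Prg4* and -0.31 for *Vsig4*. With this centring *Garnl3* alone stayed above 0.5. The share of all genes past 0.5 was not computed for centred ratios, at ZT14 or between the times. For ZT2 against ZT14 in MCS the centred log2 ratio was -0.83 for *Garnl3* and -0.73 for *Bhlhe40*. It was -0.46 for *Icam2*, -0.46 for *Alox15* and -0.43 for *Cebpb*, so that *Garnl3* and *Bhlhe40* alone stayed below -0.5. What transcript length contributed to the ratios was not tested.

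**Figure D5:**
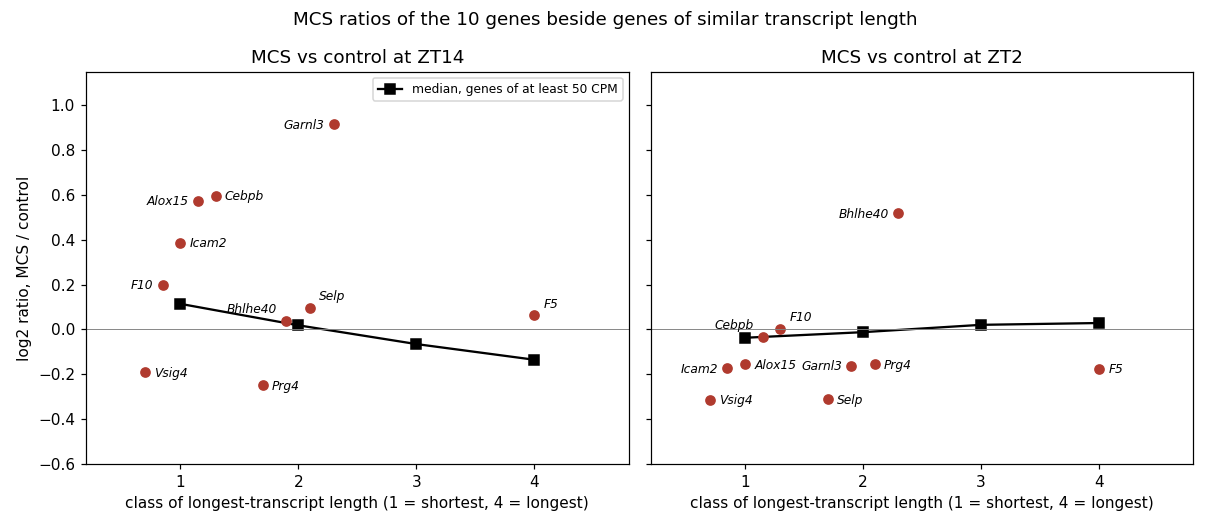
Log2 ratio of MCS to control (y axis) by class of longest-transcript length (x axis, from class 1, the shortest, to class 4) at ZT14 and at ZT2. Squares are medians of genes of at least 50 CPM and circles are the 10 genes, spread sideways for legibility; *Garnl3* lies at 0.92 in class 2, whose median is 0.019 at ZT14.

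The profiles over the 4 libraries were compared by the Euclidean distance between log2 values, each taken relative to the gene's own mean. Within the 10, *Alox15* and *Cebpb* were the closest pair with a distance of 0.091, followed by *Icam2* and *Alox15* with 0.16. *Selp* was closest to *Vsig4* (0.20) and then to *F5* (0.22), its neighbour. The 6 largest distances all involved *Bhlhe40*, up to 1.37 from *Vsig4*. Among 8631 genes with a mean of at least 10 CPM, the gene nearest to *Garnl3* was *Dusp1*, a phosphatase of MAP kinases, at 0.042, with 139, 123, 124 and 224 CPM in control ZT2, control ZT14, MCS ZT2 and MCS ZT14. Nearest to *Cebpb* were *Mpc2* (0.016) and *Ldha* (0.040), the latter, of lactate dehydrogenase A, with 258, 247, 243 and 369 CPM in the same order. *Alox15* was nearest to *Telo2* (0.033), *Prdx5* (0.042) and *Samm50* (0.044), and *Icam2* to *Phb* (0.017). *Vsig4* had *Rab21* at 0.0092, *Selp* had *Haus6* at 0.017, *F5* had *Rnf168* at 0.016, *F10* had *Tnfaip8* at 0.028 and *Prg4* had *Cbx1* at 0.024. *Bhlhe40* had no gene as near, with *P2ry1* at 0.15 and *Nrip1* at 0.20. With 4 points a profile, such nearness is a description.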

How the data were processed

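RNA-seq of sorted peritoneal macrophages was analysed in 4 libraries, 1 for each of control and MCS at ZT2 and ZT14, grouped by their labels. Libraries had been made by ribosomal RNA depletion and a directional kit and read as paired 150 nt ends. The authors trimmed reads with Trimmomatic 0.38, estimated counts with RSEM 1.3.0 (Bowtie 2), and deposited edgeR-normalized CPM; the build in the submitters' processing notes is mm10. All values were whole reads within 0.05 read (100% in each column), so that RSEM estimates had been rounded or were whole.

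Log2 ratios used a pseudocount of 0.1 CPM, and the fold criterion (log2 ratio beyond 1, log2 mean above 0) follows the study's methods. Counting intervals came from scipy 1.17.1. The recovered reads of the 12404 genes that summed to 40 or more were fitted with edgeR 4.0.16 (quasi-likelihood test, additive terms, Benjamini-Hochberg adjustment) and DESeq2 1.42.0 as an alternative, after a test on simulated data. Loci and transcript lengths are from GENCODE M21, upstream windows from RefSeq, both on GRCm38. Shared sequence was found with blastn 2.17.0. Figures were drawn with matplotlib 3.10.9.

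The members, lists and tests were chosen with earlier results of these data known. Named were all 10 members, list genes past the fold criterion, the sort gate genes and *Gata6*, nearest profiles (mean of at least 10 CPM) and neighbouring genes; others are named as picked later. Alternatives were other pseudocounts, minimum levels, thresholds, scalings, count tests and transcript lengths. Listed markers without a value are not analysed here.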

Additional observations from a re-analysis of the deposited data

Results flagged for a closer look

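The MCS log2 ratio had opposite signs at ZT14 and ZT2, with both counting intervals apart from 0, for 5 of the 10 genes, above 0 at ZT14 and below 0 at ZT2 in each. Among genes with a mean of at least 50 CPM this order of signs was found for 11.4%, and either order for 23.1%. Each time has 1 library per treatment, and the difference was not tested. For *Garnl3* the ratio was 0.92 at ZT14 and -0.16 at ZT2, a difference of 1.08. *Alox15* had 0.58 and -0.15, a difference of 0.73. *Icam2* followed with 0.39 and -0.17, a difference of 0.56. *Selp* had 0.098 and -0.31, a difference of 0.41. *F5* had 0.063 and -0.18, a difference of 0.24.

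For 3 of these genes the log2 ratio of ZT2 to ZT14 also had opposite signs in control and MCS, which is the same difference computed from the same 4 libraries and likewise was not tested. Of genes with a mean of at least 50 CPM, 6.05% had this order of signs, above 0 in control and below 0 in MCS, and 15.6% had either order. *Garnl3* had 0.18 in control and -0.90 in MCS (1.08), *Alox15* had 0.11 and -0.62 (0.73), and *F5* had 0.11 and -0.13 (0.24).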

How the results depend on the processing

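The number of the 10 genes past the fold criterion (0 for MCS at ZT14, 0 for MCS at ZT2, 1 for time in control and 0 for time in MCS) was the same with pseudocounts of 1 and 0.01 CPM, without a minimum level, with a minimum log2 mean of 3, and with the other scalings. With a log2 threshold of 0.5 it was 3, 1, 1 and 5, in that order, and with a threshold of 2 it was 0 for time in control. Centring by transcript length, added after the data were seen, moved the median log2 ratio for time in MCS from -0.54 to -0.39 and the median difference of the MCS ratios from 0.32 to 0.39. It took the difference of the MCS ratios below 0.5 for *Icam2* and *Cebpb* and below 0 for *Vsig4*. *Garnl3* and *Alox15* stayed above 0.5. The share of all genes past 0.5 was not computed for centred differences. The centring moved 18 of the 40 single log2 ratios beyond their counting interval, by at most 0.16. CPM from recovered library totals moved 7 of 40, by at most 0.069. Both changed the sign of *Cebpb* for MCS at ZT2 and of *Selp* for time in MCS, each near 0. Pseudocounts, median rescaling and TMM factors moved none beyond its interval. The scalings shifted the median of all genes by at most 0.068. The count tests called 0 of the 10 for MCS and 1 for time in every setting, whereas calls over all genes went from 5 (DESeq2) to 43 (edgeR with at least 10 reads) for MCS, and from 81 to 395 for time. In the latter setting *Garnl3* had an unadjusted edgeR p of 0.026 for MCS. No paired analysis was possible because each condition has 1 library and the labels give no replicate numbers to pair. The additive count model fits 1 effect of MCS over both times, adjusted for time. It makes no comparison of MCS with control within a single time. With 1 library per condition none could be left out of a comparison.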
